A study of Mus musculus with 17 samples.

Results

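A set of 6 genes encoding inhibitors of cyclin-dependent kinases (CDKs) were followed in mouse germinal centre (GC) B cells: Cdkn1a, Cdkn1b, Cdkn2a, Cdkn2c, Cdkn2d and Cdkn3. They were taken by symbol from the feature tables, which list 21848 genes, and all 6 passed the filter on low counts in both the time course and the reporter experiment. Cdkn1a and Cdkn1b encode p21 and p27 of the Cip/Kip family, which bind cyclin–CDK complexes, above all those of CDK2. Cdkn2a, Cdkn2c and Cdkn2d belong to the INK4 family, whose p16, p18 and p19 proteins bind CDK4 and CDK6 and keep cyclin D off them. Cdkn2a also encodes p19Arf from another first exon, a protein that stabilizes p53, and the counts here do not separate the products of the locus. Cdkn3 encodes a phosphatase that binds CDK2 and CDK1 and removes an activating phosphate. GC B cells alternate between a light zone, where they capture antigen and receive T cell help, and a dark zone, where they divide and mutate their immunoglobulin genes, and CDK2 activity after mitosis is a known switch between a further division and a pause before the next S phase.

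The donor B cells of the time course carried IghB1-8hi, a heavy chain that makes them specific for the hapten NP. They were transferred into adult CD45.1/1 mice of both sexes primed with ovalbumin (OVA) in alum. By the study's description, a minority expressed the receptor DEC-205 and a histone label under doxycycline control. These donors were IghB1-8hi/+, Vav-tTA transgenic, Col1a1 tetO-H2B-mCherry/WT and CD45.2/2. All recipients of the time course were immunized with NP-OVA in the footpad. Treated mice also received, at 7 days post-immunization (dpi), anti-DEC-OVA, an antibody that carries OVA to DEC-205 (gene Ly75), so that the DEC-205+ minority of transferred cells presented OVA to T cells, whereas the other transferred cells were Ly75-/-. GC B cells were sorted at 7 dpi (0 h, 9 mice), at 9 dpi (48 h, 6 untreated and 9 treated mice) and at 10 dpi (72 h, 8 untreated and 7 treated mice), labelled with hashtag antibodies particular to each mouse, mixed and run as 10X Genomics 5′ single-cell libraries. By the study's description, the cells of the time course were DEC-205+ GC B cells, in treated and untreated mice alike. The time course had 2 experiments, a larger one of 25 mice and a smaller one of 14, each 1 pool. In the reporter experiment, GC B cells expressing DHB-tdTomato from Rosa26, a fragment of human DNA helicase B fused to a red fluorescent protein that leaves the nucleus when CDK2 is active, were sorted by image 72 h after anti-DEC-OVA into cytoplasmic (CDK2hi) and nuclear (CDK2low) cells from the same 7 mice. By the study's description, reporter mice were crossed to B1-8hi, and the cells of this sort came with or without an H2B-GFP transgene. Each reporter population was 1 pool, so pool and population cannot be told apart, and the sort marker itself reads out CDK2.

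Levels are CPM, the unique molecular identifiers (UMIs) of a gene in the kept cells of a mouse scaled to 1000000 UMIs of all genes. The time course held 23698 cells, 292–1045 per mouse, and 1984426–13373185 UMIs per mouse. The B1-8hi receptor pairing, to which the study limited its cells, was required here only in an alternative. It was found in 9208 of 13625 kept cells of the larger and 4369 of 10073 of the smaller experiment. In the reporter experiment 4732 of 7503 CDK2hi and 2719 of 4385 CDK2low cells had it. A cell in which either chain was not read counted as lacking the pairing. Treated 48 h cells held 15090 ± 1340 UMIs per cell (mean ± SD, n = 9 mice) against 8421 ± 1016 in untreated 48 h cells (n = 6), and the other groups averaged 8168–8586. CDK2hi cells held 10990 ± 732 UMIs and CDK2low cells 13410 ± 1270 (n = 7 each). Of the GC B cell markers listed, Bcl6 and the proliferation gene Mki67 were at 205.2 CPM or more in every mouse at 48 h. Rgs13 of the same list went down to 40.9 CPM in treated mice. Fcer2a, a naive or memory B cell marker, was at 194.9–306.6 CPM in untreated 48 h mice, where Bcl6 was at 242.2–301.8 CPM. These levels by themselves do not tell the cell types apart. The T cell gene Cd3e was at or below 2.297 CPM at 48 h and 4.039 CPM at other times, but reached 11.68 CPM in 1 CDK2low mouse, where the median was 0.2763 CPM. Cd3d went higher, up to 4.624 CPM at 48 h, 8.209 CPM in untreated 72 h mice and 18.39 CPM in CDK2low cells. The pools of the time course shared 94 cell barcodes and the reporter pools 6.

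Promoters are shown for Cdkn3, Cdkn2d and the upstream start of Cdkn2a, the members whose windows held one of the motifs searched. Cdkn3 and Cdkn2d were also the most correlated pair of members across the mice of all time-course groups together. The windows run from 250 bases before to 50 after the annotated start on GRCm39, and capitals mark a CHR element (TTTGAA, a site that can recruit the DREAM complex to genes of late cell cycle) or an E2F site (TTTCCCGC), on either strand.
Cdkn3, chr14:46997654-46997953, plus strand: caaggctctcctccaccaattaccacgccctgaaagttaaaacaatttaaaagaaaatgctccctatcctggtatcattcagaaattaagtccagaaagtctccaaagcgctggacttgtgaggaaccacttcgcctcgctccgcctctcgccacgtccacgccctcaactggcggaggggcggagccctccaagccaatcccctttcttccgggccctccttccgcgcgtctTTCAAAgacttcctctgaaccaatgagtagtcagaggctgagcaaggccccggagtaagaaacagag
Cdkn2d, chr9:21202678-21202977, minus strand: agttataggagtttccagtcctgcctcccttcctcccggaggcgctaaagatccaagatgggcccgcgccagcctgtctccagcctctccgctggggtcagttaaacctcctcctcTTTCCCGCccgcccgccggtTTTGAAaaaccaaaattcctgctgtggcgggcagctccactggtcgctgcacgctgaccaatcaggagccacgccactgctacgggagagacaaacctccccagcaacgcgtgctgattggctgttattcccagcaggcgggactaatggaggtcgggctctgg
Cdkn2a upstream start, chr4:89212841-89213140, minus strand: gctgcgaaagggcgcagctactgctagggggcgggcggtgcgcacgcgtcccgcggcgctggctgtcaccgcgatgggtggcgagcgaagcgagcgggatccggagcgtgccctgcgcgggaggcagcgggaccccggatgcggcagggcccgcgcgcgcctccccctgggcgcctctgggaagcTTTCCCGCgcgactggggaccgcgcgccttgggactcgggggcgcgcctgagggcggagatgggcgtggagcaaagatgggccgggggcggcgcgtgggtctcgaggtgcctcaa

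The Cdkn3 window held the CHR letters on the other strand, 17 bases before the start. The Cdkn2d window held them 114 bases before the start and the E2F letters 134 bases before it, and the Cdkn2a window held the E2F letters 65 bases before its upstream start. Over 21260 promoters of the same length, 17% held TTTGAA and 1.37% TTTCCCGC on either strand. The other letters searched on both strands, TTTGGCGC and TTTCGCGC for E2F, CACGTG for the E-box and GTAAACA for forkhead factors, stood in 0.687%, 0.353%, 7.86% and 3.15% of promoters and in none of the members' windows. No motif of the set was found in the windows of Cdkn1a, Cdkn1b, Cdkn2c or the downstream start of Cdkn2a. The genes lie at chr17:29309936-29319701 (Cdkn1a, plus strand), chr6:134897364-134902476 (Cdkn1b, plus), chr4:89192708-89212890 (Cdkn2a, minus), chr4:109517957-109524386 (Cdkn2c, minus), chr9:21199700-21202727 (Cdkn2d, minus) and chr14:46997904-47015505 (Cdkn3, plus). All except Cdkn2a overlap an annotated gene on the opposite strand, which for Cdkn3 is the protein-coding gene Cnih1.

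At 0 h, before treatment, the levels of the members spanned more than an order of magnitude. These are 5′ UMIs, which count molecules and are not divided by gene length, and capture may differ between transcripts. Cdkn3 stood at 100.4 ± 13.43 CPM and Cdkn2d at 89.91 ± 16.31 (mean ± SD, n = 9), ranges that overlapped, followed by Cdkn2c at 45.94 ± 8.279 and Cdkn1b at 15.17 ± 2.797. Cdkn2a, at 2.705 ± 1.15 CPM, and Cdkn1a, at 1.361 ± 0.8656, overlapped each other and rested on few molecules, 2–30 and 0–16 UMIs per mouse. The inhibitors of CDK4 and CDK6 encoded by Cdkn2c and Cdkn2d, together with Cdkn3, made up most of the inhibitor transcripts counted. Cdkn1a had 0 UMIs in 3 mice of the time course, 1 each at 0 h, in untreated 48 h and in treated 72 h mice, where 3 UMIs would correspond to 0.4458, 0.6265 and 1.484 CPM. These limits cover counting error only.

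The first comparison asked whether the inhibitors changed when GC B cells were driven to expand by anti-DEC-OVA. At 48 h, 4 of the 6 members rose, Cdkn3 and the 3 INK4 genes, and none fell (edgeR, adjusted p under 0.05). Of the 10270 genes tested, 47.3% passed this threshold, 2544 higher and 2311 lower, so a call by itself did not set the members apart. The increases were 1.19-fold to 1.44-fold.

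Cdkn3 was measured at 82.03, 103.3 and 117 CPM in the lowest, median and highest untreated 48 h mouse, and at 114.8, 124.8 and 162.9 CPM in treated mice. The groups overlapped at their edges, and 8 of 9 treated mice lay above all 6 untreated mice. The log2 fold change was 0.41 ± 0.081 (SE, adjusted p = 5.513e-05), with 0.43 in the larger experiment (adjusted p = 0.000496) and 0.33 in the smaller (adjusted p = 0.1072).

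Cdkn2d, the most abundant INK4 gene here, ranged from 63.53 through a median of 86.3 to 106.3 CPM in untreated and from 83.3 through 105.3 to 127.2 CPM in treated mice. Although 4 of 9 treated mice lay above every untreated mouse, the groups overlapped over a wide range. The log2 fold change was 0.34 ± 0.069 (SE, adjusted p = 9.922e-05), and both experiments passed alone, with 0.28 in the larger (adjusted p = 0.01075) and 0.39 in the smaller (adjusted p = 0.0122). Without a term for the experiment the calls of Cdkn2d (adjusted p = 0.09603) and Cdkn2c (adjusted p = 0.1326) were lost.

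Cdkn2c, which encodes p18Ink4c, an inhibitor of CDK4 and CDK6 known to be needed for the generation of functional plasma cells, went from 38.22, 43.9 and 49.91 CPM (lowest, median, highest) in untreated to 45.18, 48.21 and 54.37 CPM in treated mice. Its log2 fold change of 0.25 ± 0.087 (SE, adjusted p = 0.01654) was the smallest of the 4, and neither experiment passed alone, with 0.22 (adjusted p = 0.1464) and 0.27 (adjusted p = 0.06814) in the larger and the smaller. The call was also lost when counts were scaled by total UMIs (log2 0.19, adjusted p = 0.06606) and among cells with the B1-8hi receptor pairing only (0.09, adjusted p = 0.4627).

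Cdkn2a was measured at 2.471, 3.046 and 3.489 CPM in the lowest, median and highest untreated mouse and at 3.11, 3.814 and 5.758 CPM in treated mice, with 7 of 9 treated mice above all untreated mice. These levels rest on 12–19 UMIs per untreated mouse and 31–77 per treated mouse. The log2 fold change was 0.52 ± 0.188 (SE, adjusted p = 0.02014), with 0.46 in the larger experiment (adjusted p = 0.1243) and 0.58 in the smaller (adjusted p = 0.233), and the call was lost with the B1-8hi pairing only (0.37, adjusted p = 0.1882).

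The Cip/Kip genes did not pass the test at 48 h. Cdkn1b ranged over 9.932–18.14 CPM (median 13.42) in untreated and 11.65–16.23 CPM (median 12.72) in treated mice, one range inside the other. Its log2 fold change was 0.02 ± 0.106 (SE, adjusted p = 0.8992), and the sign differed between the larger experiment (-0.21, adjusted p = 0.1348) and the smaller (0.40, adjusted p = 0.1213) and turned under scaling by total UMIs (-0.04). Cdkn1a ranged over 0–0.9858 CPM in untreated and 0.5321–3.399 CPM in treated mice, on 0–5 and 5–28 UMIs per mouse. Its log2 fold change of 1.01 ± 0.510 (SE, adjusted p = 0.1025) was the largest of the family and also the least precise. In the treated mouse with 28 UMIs, 21 of them came from 1 cell.

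**Figure D1:**
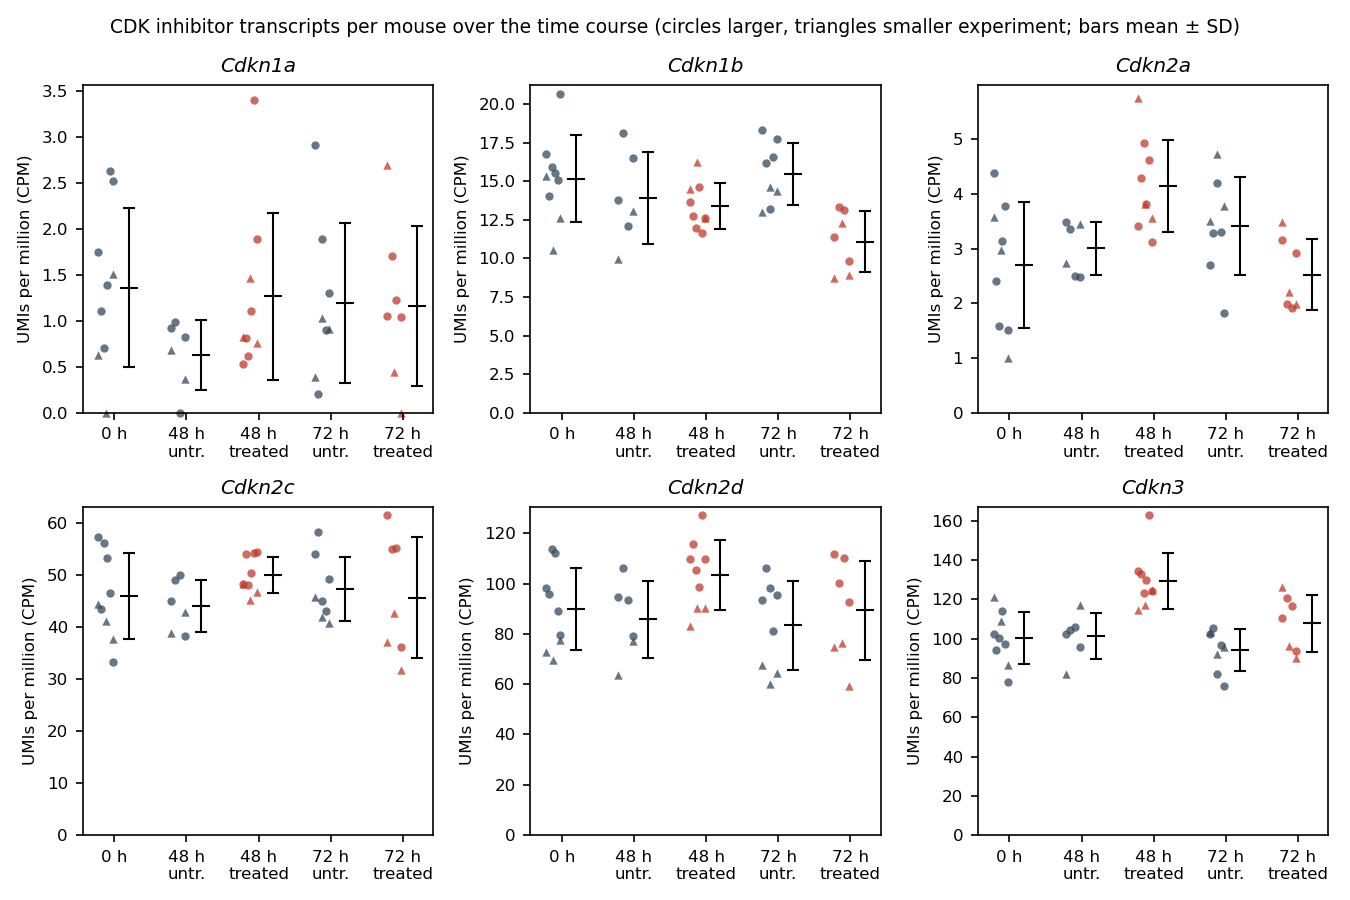
CPM (y axis, from 0) of each inhibitor in each mouse of the time course, by group (x axis), with circles for the larger and triangles for the smaller experiment and bars for the mean ± SD of 6–9 mice. Cdkn3 in treated 48 h mice sits at 114.8–162.9 CPM, with 8 of 9 mice above all untreated 48 h mice and 4 of 9 above all treated 72 h mice, and Cdkn1b in treated 72 h mice at 8.699–13.33 CPM, mostly below untreated 72 h mice.

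At 72 h, a single member passed the test, and it fell. Cdkn1b, which encodes p27, was measured at 13.01, 15.39 and 18.31 CPM in the lowest, median and highest of 8 untreated mice and at 8.699, 11.41 and 13.33 CPM in 7 treated mice. Of the treated mice, 5 lay below all untreated mice, and the groups overlapped only at their edges. Cdkn1b fell by 0.48 ± 0.121 on the log2 scale (SE, adjusted p = 0.007289), to 0.7146 of the untreated level, where 8.66% of all genes tested were called, 503 higher and 386 lower. The larger experiment alone gave -0.46 (adjusted p = 0.02203) and the smaller -0.55 (adjusted p = 0.3718). The call was lost without the term for the experiment (adjusted p = 0.05064) and when counts were scaled by the number of cells (-0.38, adjusted p = 0.1138).

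The other members did not pass at 72 h. Cdkn3 was at 76.04–105.6 CPM in untreated and 90.02–126.4 CPM in treated mice, with 4 of 7 treated mice above all untreated mice and a log2 fold change of 0.21 ± 0.085 (SE, adjusted p = 0.1313). The log2 fold changes of Cdkn2d, Cdkn2a, Cdkn2c and Cdkn1a were 0.14, -0.38, -0.03 and 0.18, with adjusted p-values of 0.2824–0.9024. The spread of Cdkn2c was larger in treated 72 h mice (31.66–61.6 CPM) than in treated 48 h mice (45.18–54.37 CPM), on total counts that were also lower.

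The groups treated with anti-DEC-OVA were then set against each other. Cdkn2a, Cdkn1b, Cdkn3 and Cdkn2d were higher at 48 h than at 72 h, by 0.72 ± 0.194, 0.36 ± 0.112, 0.32 ± 0.079 and 0.25 ± 0.068 on the log2 scale (SE, adjusted p = 0.001975, 0.006276, 0.0008129 and 0.00263). Among all genes tested, 48.9% differed between these groups. For Cdkn2a, 7 of 9 mice at 48 h lay above every mouse at 72 h, which spanned 1.922–3.48 CPM, and for Cdkn1b and Cdkn3 it was 4 of 9. In the larger experiment alone Cdkn2a (0.71, adjusted p = 0.02485) and Cdkn3 (0.34, adjusted p = 0.003467) passed, and in the smaller Cdkn1b (0.66, adjusted p = 0.01202), Cdkn2d (0.39, adjusted p = 0.006695) and also Cdkn2c (0.41, adjusted p = 0.005194). Cdkn2c in both experiments together gave 0.18 ± 0.086 (SE, adjusted p = 0.08254). Over the alternatives, the call was lost in 4 of 13 for Cdkn2d, 2 of 13 for Cdkn1b and for Cdkn3 and 1 of 12 for Cdkn2a.

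Whether the effect of treatment itself differed between the times was tested as the effect at 48 h minus that at 72 h. It differed for Cdkn2a, by 0.90 ± 0.289 (SE, adjusted p = 0.01462), and for Cdkn1b, by 0.50 ± 0.161 (SE, adjusted p = 0.01402), against 31.4% of all genes tested. With the B1-8hi pairing only, neither was called, where 1924 of 9893 genes were. Neither experiment alone passed for Cdkn2a (0.75, adjusted p = 0.158, and 1.08, adjusted p = 0.1843), and for Cdkn1b the smaller did (0.95, adjusted p = 0.03525) but not the larger (0.25, adjusted p = 0.2967). For Cdkn3 and Cdkn2d, called at 48 h and not at 72 h, the difference of the effects was 0.21 ± 0.117 (SE, adjusted p = 0.1813) and 0.20 ± 0.101 (SE, adjusted p = 0.123), so that a difference between the times was not shown for them.

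Without treatment the members showed no called change with time. None of 6 passed between 0 h and untreated 48 h, where 0.136% of all genes did, or between 0 h and untreated 72 h, where 3.95% did, and none had an unadjusted p under 0.05 or was called by DESeq2 in either comparison. Log2 fold changes from 0 h were between -0.09 and 0.03 at 48 h and between -0.12 and 0.21 at 72 h for the members other than Cdkn1a, which gave -0.92 ± 0.556 (SE, adjusted p = 0.6574) and -0.04 ± 0.47 (SE, adjusted p = 0.9913).

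The phase of the cell cycle differed between the groups in which the members moved. Phases were called from 43 S and 54 G2/M genes, none of them a member. Of the cells, 4.435% lay within 0.05 of the cut between G1 and the other phases. Cells near the cut between S and G2/M were not counted. Between 16.4% and 24.59% of treated 48 h cells were called G1 (median 21.82%, 9 mice), below the 44.76–57.1% of untreated 48 h cells (median 53.45%, 6 mice), and G2/M calls had medians of 41.67% and 24.97%. At 72 h the G1 shares were alike, with medians of 49.91% in treated and 49.71% in untreated mice.

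Across phases the members formed distinct patterns, given here as a description. Pooled over 39 mice, Cdkn3 went from 21.26 CPM in G1 through 49.33 in S to 209.7 in G2/M cells, and G2/M was above both other phases in 39 of 39 mice. Cdkn2c went from 20.23 through 39.2 to 69.06 CPM, in this order in 39 of 39 mice. Cdkn2d stood at 57.16 CPM in G1, 49.03 in S and 147.2 in G2/M cells, and G2/M was above both other phases in 39 of 39 mice. Cdkn2a was highest in S cells, with 0.9976, 4.98 and 3.584 CPM in G1, S and G2/M, and was above G1 in S cells of 38 of 39 mice. Cdkn1b ran the other way, with 18.12 CPM in G1 against 11.61 in S and 13.21 in G2/M, and S was above G1 in 6 of 39 mice. This order holds as a share of UMIs. Counted per 100 cells, Cdkn1b in untreated 72 h mice had means of 11.08 UMIs in G1, 11.67 in S and 17.57 in G2/M cells. Cdkn1a, at 1.053, 1.537 and 0.9205 CPM on 57, 125 and 94 UMIs in all, showed no clear order.

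**Figure D2:**
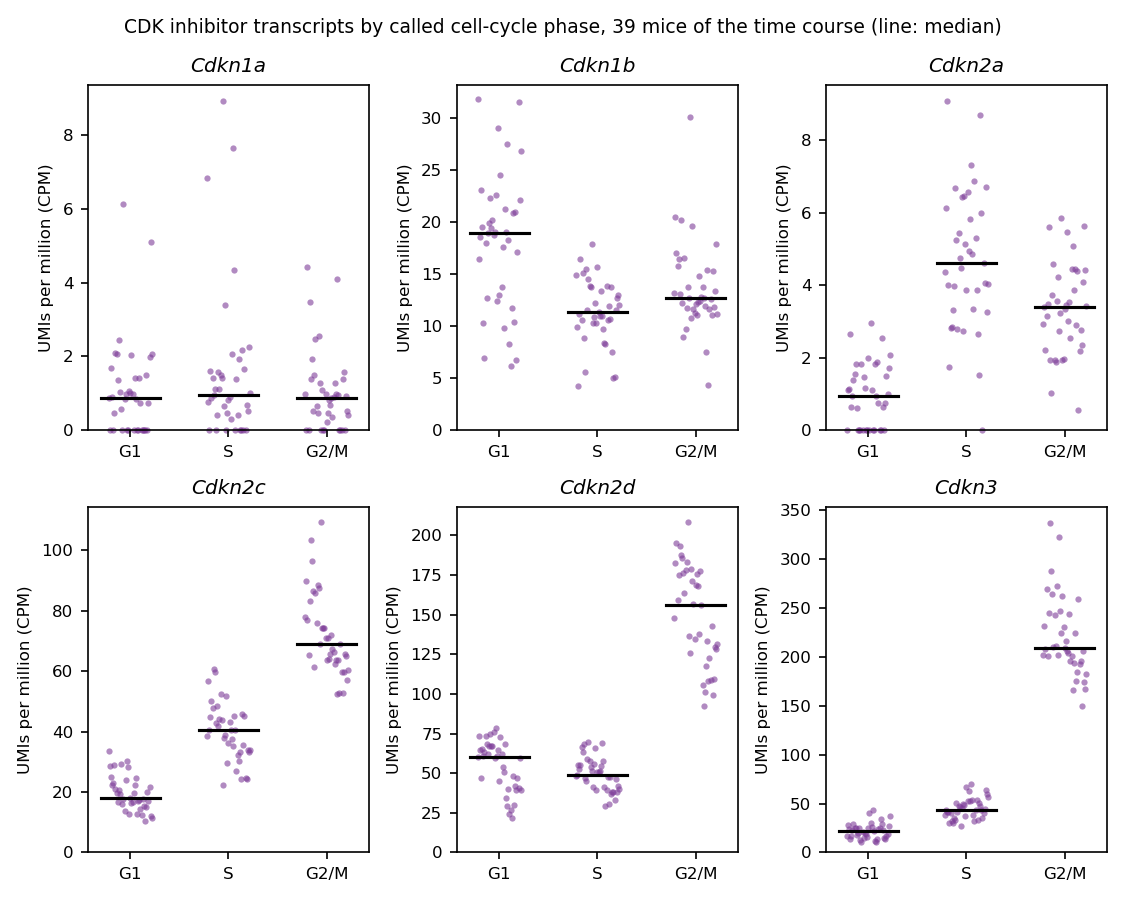
CPM of each inhibitor (y axis) in cells called G1, S and G2/M (x axis) for each of the 39 mice of the time course, with a line at the median. Cdkn3, Cdkn2c and Cdkn2d peak in G2/M, Cdkn2a in S and Cdkn1b in G1, with a pooled level of Cdkn3 of 21.26 CPM in G1 and 209.7 in G2/M.

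Within single phases, fewer members differed at 48 h. In G1 cells Cdkn3 rose by 0.84 ± 0.188 (SE, adjusted p = 0.002365), where 9.32% of the 8940 genes tested were called. It was at 14.16–20.33 CPM in untreated and 18.77–43.52 CPM in treated mice, and 8 of 9 treated mice lay above all untreated mice. The larger experiment alone gave 0.82 (adjusted p = 0.009919) and the smaller 0.90 (adjusted p = 0.3378). With the B1-8hi pairing only, the call of Cdkn3 was lost, where 216 of 8072 genes were called. The other members tested in G1 cells, Cdkn2c, Cdkn2d and Cdkn1b, had log2 fold changes of -0.25, -0.09 and 0.16 (adjusted p = 0.4116, 0.7269 and 0.7228), and Cdkn1a and Cdkn2a had too few counts to be tested. In S cells Cdkn3 rose by 0.48 ± 0.099 (SE, adjusted p = 0.0006171), with 52.11–69.55 CPM in treated and 36.99–49.02 CPM in untreated mice, ranges that did not overlap, and was the only one of 5 members tested that passed, beside 12.2% of all genes. In G2/M cells none of 5 members passed, at an unadjusted p under 0.05 likewise none, beside 17.5% of all genes, and Cdkn3 gave -0.10 ± 0.082 (SE, adjusted p = 0.431). Cdkn2d, called over all cells, gave 0.15 in S (adjusted p = 0.333) and 0.16 in G2/M cells (adjusted p = 0.1671).

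The fall of Cdkn1b at 72 h was also found in G1 cells, where its pooled CPM was highest over the phases. Its levels there were 16.51, 19.32 and 31.87 CPM in the lowest, median and highest untreated mouse and 6.208, 10.28 and 17.98 CPM in treated mice, so that the groups overlapped only at their edges. The log2 fold change was -0.93 ± 0.229 (SE, adjusted p = 0.006606), where 8.66% of the 8940 genes tested were called. In S cells the means were 10.48 ± 2.915 CPM in treated and 10.92 ± 4.053 in untreated mice, and in G2/M cells 11.7 ± 5.28 and 15.19 ± 2.821 CPM, given without a test. Cdkn3 in G1 cells at 72 h stood at 23.37–33.72 CPM in treated and 10.44–28.06 CPM in untreated mice (log2 0.53 ± 0.181, SE, adjusted p = 0.05502).

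The reporter experiment compared the members between cells with high and low CDK2 activity. In CDK2hi cells 5 of 6 members were higher, Cdkn3, Cdkn2c, Cdkn2a, Cdkn2d and Cdkn1a, and Cdkn1b did not pass. Most genes differed between these populations: 73.5% of the 10597 tested were called, 3767 higher and 4021 lower.

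Cdkn3 differed most. It was at 17.46, 30.84 and 37.93 CPM in the lowest, median and highest mouse among CDK2low cells and at 124.2, 136.4 and 144 CPM among CDK2hi cells, groups far apart. The level in CDK2hi cells was 3.628 to 7.778 times that in CDK2low cells of the same mouse, and the log2 fold change was 2.30 ± 0.081 (SE, adjusted p = 1.118e-18).

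The INK4 genes followed with similar changes. Cdkn2c was at 20.01, 23.51 and 27.7 CPM in CDK2low and at 54.44, 56.89 and 65.75 CPM in CDK2hi cells (log2 1.55 ± 0.048, SE, adjusted p = 6.718e-20). Cdkn2d was at 42.08, 51.85 and 57.96 CPM in CDK2low and at 106.8, 116.2 and 123.4 CPM in CDK2hi cells (log2 1.39 ± 0.040, SE, adjusted p = 2.009e-20). Neither gene's groups overlapped, and each mouse had about the same ratio, 2.242–2.812 for Cdkn2c and 1.996–2.56 for Cdkn2d. How many of all genes lacked overlap was not counted in any comparison, and 73.5% were called here, so this does not set members apart. Cdkn2a was at 1.082, 2.547 and 5.389 CPM in CDK2low and at 5.593, 7.045 and 9.817 CPM in CDK2hi cells, with groups that just missed each other and 5–78 and 32–205 UMIs per mouse. Its ratio varied more, from 1.822 to 5.169, and its log2 fold change was 1.51 ± 0.139 (SE, adjusted p = 3.704e-10).

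Of the Cip/Kip genes, Cdkn1b did not pass and Cdkn1a was called on few UMIs. Cdkn1b was at 9.824, 13.82 and 19.91 CPM in CDK2low and at 9.54, 13.44 and 14.96 CPM in CDK2hi cells, ranges that overlapped, although 3 of 7 CDK2low values lay above all CDK2hi values, and was higher in CDK2hi cells of 2 of 7 mice. Its log2 fold change was -0.03 ± 0.080 (SE, adjusted p = 0.7762), but -0.23 (adjusted p = 0.01326) when scaled by total UMIs and -0.52 (adjusted p = 4.7e-07) when scaled by the number of cells, and per cell it was lower in CDK2hi cells of all 7 mice, at a median of 0.6767 of the CDK2low level. Cdkn1a was at 0.6864–1.698 CPM in CDK2low and 0.7298–2.088 CPM in CDK2hi cells, on 4–32 UMIs per mouse, and was higher in CDK2hi cells of 5 of 7 mice. Its log2 fold change was 0.71 ± 0.249 (SE, adjusted p = 0.01268), but the call was lost when scaled by total UMIs (0.51, adjusted p = 0.06308) or by the number of cells (0.22, adjusted p = 0.4202), was lost with DESeq2 (0.62, adjusted p = 0.1406), and held in 5 of 7 fits that left out a mouse, with adjusted p = 0.08603 and 0.05509 without replicates 1 and 4.

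**Figure D3:**
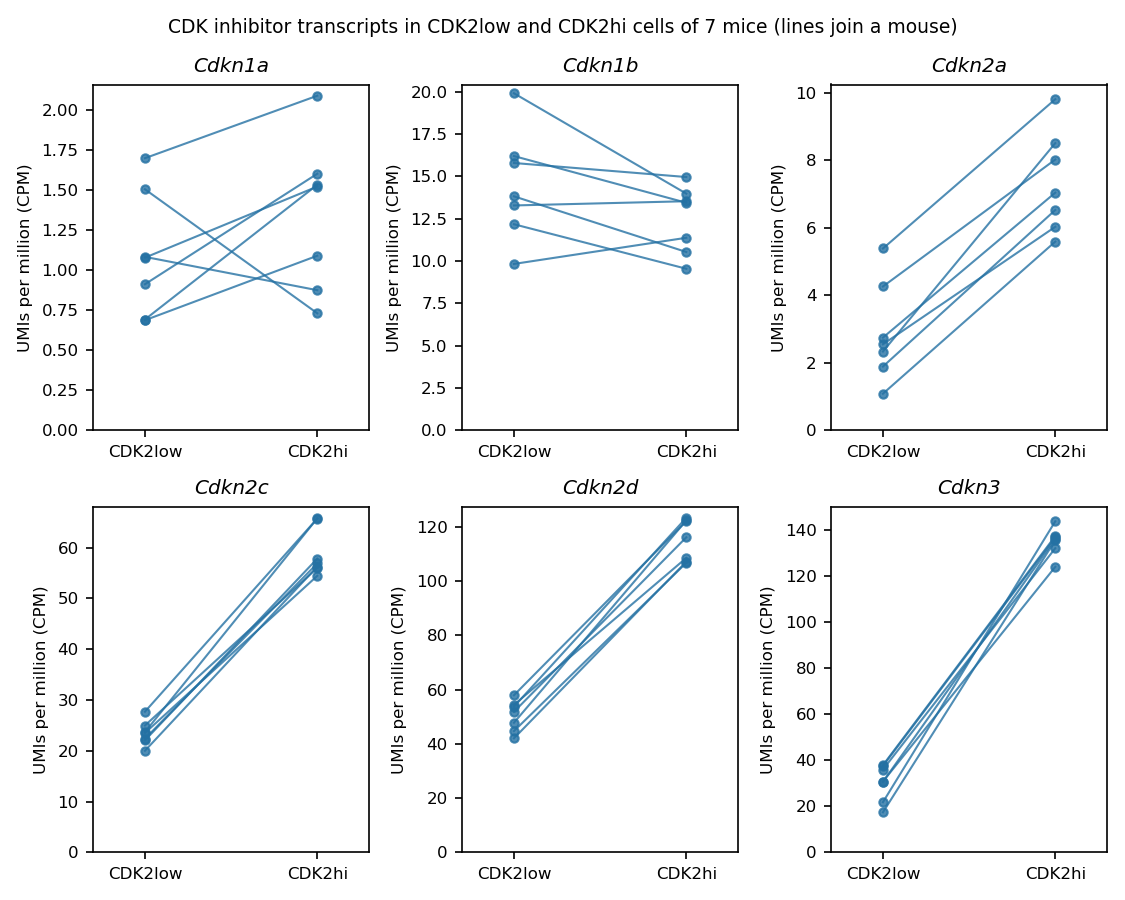
CPM of each inhibitor (y axis) in CDK2low and CDK2hi cells (x axis) of the same 7 mice, with a line joining the populations of a mouse. Cdkn3 is higher in CDK2hi cells of all mice, at 124.2–144 against 17.46–37.93 CPM, and the lines of Cdkn1b cross.

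Phase moved with the reporter, as 71.04–83.09% of CDK2low cells and 7.394–13.75% of CDK2hi cells of a mouse were called G1. Within cells called G1, Cdkn3 and Cdkn2a were still higher in CDK2hi cells, where 38.3% of the 9387 genes tested were called. Cdkn3 in G1 cells was at 11.69, 15.96 and 18.66 CPM (lowest, median, highest) in CDK2low and at 38.95, 58.15 and 77.29 CPM in CDK2hi cells, with no overlap (log2 1.78 ± 0.129, SE, adjusted p = 1.919e-19). Cdkn2a in G1 cells was at 0.9262–3.356 and 1.387–13.32 CPM, on as few as 1 UMI in a mouse (log2 1.98 ± 0.377, SE, adjusted p = 1.21e-05). Cdkn2d and Cdkn2c, higher over all cells, gave 0.05 ± 0.099 (SE, adjusted p = 0.742) and -0.34 ± 0.171 (SE, adjusted p = 0.116) within G1 cells, and Cdkn1b gave 0.11 ± 0.185 (SE, adjusted p = 0.6745). Among G2/M cells, given without a test, 5 CDK2low mice had 10 cells or more. Cdkn2c was there at 9.083–34.57 CPM in CDK2low, on 4–17 UMIs per mouse, and 64.46–84.27 CPM in CDK2hi cells. Cdkn2d was at 38.6–119.1 and 146.3–179.8 CPM, also without overlap. Cdkn3 was at 147.3–311.3 and 198.3–212.4 CPM, ranges that overlapped.

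Other values moved with these comparisons, and their part in the results was not tested. At 48 h the summed light zone list (8 of 8 genes found) was at 364.8–514.6 CPM in treated and 781.2–940.8 CPM in untreated mice, and in the reporter experiment at 427–574.1 CPM in CDK2hi and 929.7–1240 CPM in CDK2low cells. The list of naive or memory B cell markers (6 of 6 found) was at 97.89–192.9 against 235.1–374.4 CPM at 48 h and at 95.57–171.3 against 319.4–500.7 CPM in the reporter experiment. T cell markers (6 of 7 found) summed to 47.26–65.61 against 67.55–106.3 CPM at 48 h and 44.33–66.68 against 61.23–142.2 CPM in CDK2hi against CDK2low cells. Most of that sum was 1 gene, Lck, with medians at 48 h of 56.35 CPM in treated and 79.21 CPM in untreated mice, whereas Cd3d, Cd3e and Cd3g had medians of 0.2934–0.6167 and 1.917–2.666 CPM. The GC B cell list (10 of 10 found) was itself at 5641–6234 CPM in treated and 6298–6797 CPM in untreated 48 h mice, without overlap, and at 5781–6079 and 5319–5871 CPM in CDK2hi and CDK2low cells. Plasma cell (6 of 6), myeloid (6 of 6) and dark zone (5 of 5) lists overlapped between treated and untreated 48 h mice, at medians of 1432 against 1110, 12.71 against 14.98 and 1164 against 1102 CPM, and the myeloid gene Fcgr1 had a median of 0 in all groups. The plasma cell and dark zone sums held genes that went opposite ways. At 48 h Foxp1 was at 199.5–282.5 against 326.8–386.5 CPM and Gcsam at 348.6–401.8 against 250.5–278 CPM in treated against untreated mice, and most of the plasma cell sum was Jchain (median 1265 against 929.6 CPM), while Irf4 had medians of 10.08 against 23.28 CPM. In the reporter experiment the sums of the plasma cell and dark zone lists overlapped too, but Hmmr was at 171.6–213.4 against 16.25–27.59 CPM, Gcsam at 336–411.6 against 245.6–297.1 CPM and Foxp1 at 201.2–240.7 against 437.8–573.2 CPM in CDK2hi against CDK2low cells. The myeloid list was at 4.014–6.386 CPM in CDK2hi and 7.641–22.29 CPM in CDK2low cells, without overlap. The median mitochondrial share of UMIs was lower in CDK2hi than in CDK2low cells of all 7 mice, at 2.973–3.416% against 3.354–3.876%. At 48 h it was 2.179–2.328% in treated and 2.293–2.387% in untreated mice of the larger experiment and 4.036–4.426% and 4.753–4.883% in the smaller. At 72 h, where Cdkn1b fell, the light zone list was at 669.5–878.6 CPM in treated and 818.9–1010 CPM in untreated mice.

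The groups differed in UMIs per cell, and the values depended on the scale used. Scaled by the number of cells, the median of all genes was shifted by 0.78 on the log2 scale at 48 h, and all 6 members were called higher, by 0.81 (Cdkn1b) to 1.78 (Cdkn1a), with 1.20 for Cdkn3. On that scale 9584 of 10270 genes were called and 9536 of them were higher, so that 6 of 6 members is near the background. In CDK2hi against CDK2low cells the per-cell scale moved the median of all genes to -0.52, close to the value of Cdkn1b there, while Cdkn3, Cdkn2c, Cdkn2a and Cdkn2d stayed called at 1.83, 1.05, 1.01 and 0.90. Of all calls at 48 h, 52.4% were higher under TMM scaling, 37.9% by total UMIs and 99.5% by the number of cells, and in CDK2hi against CDK2low cells the shares were 48.4%, 29% and 12.5%.

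**Figure D4:**
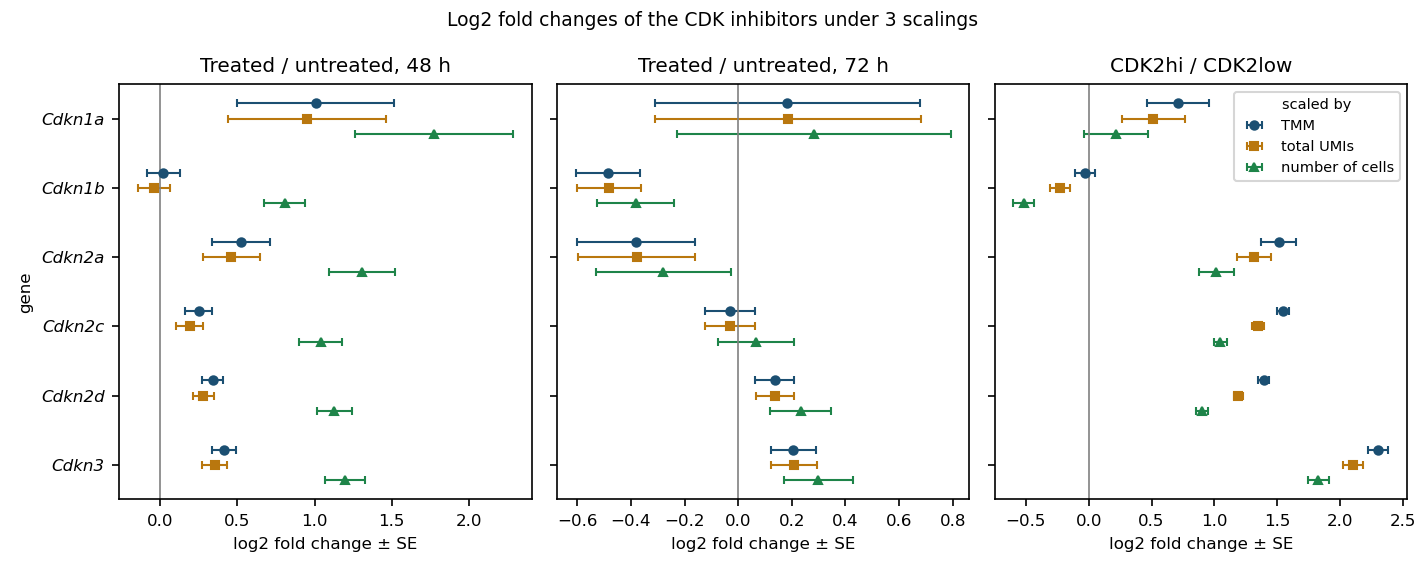
Log2 fold change ± SE (axis with 0 for no change) of each inhibitor in treated against untreated mice at 48 h and 72 h and in CDK2hi against CDK2low cells, under scaling by TMM, by total UMIs and by the number of cells. At 48 h all members shift up per cell, to 0.81–1.78, and in CDK2hi cells Cdkn1b moves from -0.03 to -0.52.

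The partners of the inhibitors were described from fixed lists. Of the kinases and cyclins that they bind, 10 of 11 tested genes rose at 48 h and 1 fell (median log2 fold change 0.46, against -0.005 over all genes tested, of which 24.8% rose and 22.5% fell). Among them Ccnb1 rose by 0.65, Ccne1, the partner of CDK2 at the start of S phase, by 0.58 and Cdk1 by 0.56, whereas Ccnd2, a D-type cyclin that the INK4 proteins oppose, fell by 1.35 ± 0.332 (SE, adjusted p = 0.0008985). In the list for turnover of p21 and p27, 10 of 14 rose and 3 fell. It included Skp2 (0.52) and Cks1b (0.46), which mark p27 for degradation, Pcna (0.55), through which p21 is degraded in S phase, and Cdc20 (0.53), an activator of the anaphase-promoting complex.

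Of the transcription factors and repressors known to act on these genes, 5 of 17 rose and 6 fell. The largest changes were falls, in Mxd4 by 0.93, the quiescence factor Klf2 by 0.83, Foxo3, an activator of Cdkn1b, by 0.56 and Bach2 by 0.37. Among other p53 targets, 2 of 13 rose, including Gtse1 (0.41), and 5 fell, including Pmaip1, Fas and Trp53inp1 by 0.34, 0.31 and 0.28. Beside the 47.3% called over all genes at 48 h, the shares called among the factors and the p53 targets were near the background. Of the pocket proteins and E2F factors, 3 of 5 rose, E2f3 (0.29), Rbl1 (0.24) and Rb1 (0.23). All of these named changes passed the test, with adjusted p-values up to 0.04065.

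At 72 h, where 8.66% of all genes were called, 1 gene was called in each of 3 lists and none in the other 2, shares near that background. Ccnd3, the cyclin D of dark zone cells, fell by 0.26 ± 0.056 (SE, adjusted p = 0.002136), Bcl6 rose by 0.18 ± 0.044 (SE, adjusted p = 0.004617) and Gadd45a rose by 0.33 ± 0.090 (SE, adjusted p = 0.01548). In CDK2hi against CDK2low cells, the kinase and cyclin list had 9 higher and 2 lower of 11 (median 1.498, against -0.03 over all genes), the turnover list 9 and 3 of 14 (0.43), the factors 5 and 9 of 17 (-0.13), the p53 targets 2 and 8 of 13 (-0.10) and the pocket proteins 4 and 0 of 5 (0.44), where 73.5% of all genes were called. In G1 cells at 48 h, the same lists in this order had 5, 4, 0, 0 and 1 genes higher and 1, 0, 1, 2 and 0 lower, of 10, 14, 17, 12 and 5 tested, where 9.32% of all genes were called, 4.7% higher and 4.62% lower. Of the other genes of the family, Cdkn2b had 71 UMIs over the 39 mice and was not tested, and Cdkn1c, with 387 there, was not called in treated against untreated mice at 48 h or 72 h. In the reporter experiment, on 250 UMIs over 14 samples, Cdkn1c was called higher in CDK2hi cells (log2 0.97), a call that was not kept per cell (0.47, adjusted p = 0.05534).

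The genes most like each member across the 39 mice are given by Pearson r of log2 CPM centred within each experiment, over 10270 genes. This is a description in which the genes share libraries, depth and phase. Differences between the treatment and time groups were not removed and enter r. Cdkn3 was most like Ccnb2 (0.912), Cdc20 (0.9045) and Nek2 (0.892), genes of mitotic entry and progression. Cdkn2c was most like H2ax (0.7973), Cenpl (0.788) and Ncaph (0.7837), which act in chromosome structure, and Cdkn2d like Hnrnpk (0.8297), Cdc42ep3 (0.817) and H3f3b (0.8054). Cdkn2a was most like Rars (0.7654), Prpf31 (0.744) and Coq7 (0.7418), and Cdkn1b like Lmo4 (0.7162), Ly6d (0.6448) and Ap1ar (0.6326). The values for Cdkn1a, led by Ube2o (0.5961), rest on few UMIs. Among the members, Cdkn2d had r of 0.7376 with Cdkn3 and 0.7254 with Cdkn2c, whereas Cdkn1b had -0.1362 with Cdkn3.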

How the data were processed

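The authors deposited UMI counts per gene and per hashtag in each cell, made with CellRanger (8.0.1 in the file headers, 7.1.0 for the first experiment, and 6.0.1 in the submitters' processing notes, which also name mm39) and not normalized, with a table of hashtags and groups of the mice. Its days 7, 9 and 10 were taken as 0 h, 48 h and 72 h, and its C and N as cytoplasmic (CDK2hi) and nuclear (CDK2low).

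Kept cells had 200 genes or more and less than 10% mitochondrial UMIs, a limit that 3114 assigned cells of the smaller and 350 of the larger experiment failed. A cell was assigned to a mouse by HTODemux (Seurat 5.3.0, quantile 0.99) if it was positive for exactly that mouse's hashtags. Doublets within a mouse were not searched for. Sums per mouse (10 cells or more) entered edgeR 4.0.16 (R 4.3.3) with filterByExpr, TMM scaling and the quasi-likelihood test, adjusted by Benjamini-Hochberg over all genes tested at a threshold of 0.05, with a term for the experiment or, in the reporter experiment, a block for the mouse, since both populations carry the same mouse names in the authors' table. A further 2 listed reporter mice, with hashtags at a mean of at most 0.097 UMIs per cell, were not analysed. Phases came from CellCycleScoring, and promoters and positions from the GENCODE annotation of GRCm39. Only the 48 h test was tried on simulated counts, drawn without a difference between the experiments. It found 77 of 100 genes changed by 0.5 on the log2 scale and 96 of 100 changed by 1, and called 13 unchanged genes. Smaller changes and the other comparisons were not simulated.

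Members and lists were chosen with earlier results of these data known. Named were all members, up to 4 genes per list with the largest change among those called at 48 h, the 3 genes most like each member and, chosen after their values were seen, list genes called at 72 h. The alternatives were DESeq2 1.42.0, no filter on low counts or cells, cells with the B1-8hi pairing in their contigs only, cells thinned to 2871 UMIs (5264 for the reporter), quantile 0.95, no term for the experiment, only the groups compared, each experiment alone, no block and each reporter mouse left out. Scaling by total UMIs or number of cells, leaving out 1 mouse at 48 h or 0 h, and fits within cells of 1 phase were added after seeing the data.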

Additional observations from a re-analysis of the deposited data

Results flagged for a closer look

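In treated 48 h mice, 1 mouse of the larger experiment stood apart in 2 members. Its Cdkn3 level of 162.9 CPM lay above the next mouse at 134.4 CPM, a gap of 0.5925 of the group's range, and its Cdkn1a level of 3.399 CPM above the next at 1.885 CPM, a gap of 0.5281, both over Dixon's 95% critical value for 9 mice. Of its 28 Cdkn1a UMIs, 21 came from 1 cell, and without that cell the level was 0.8497 CPM. Its Cdkn3 level stayed at 160.2 CPM without the cell with most Cdkn3 UMIs, which held 22 of 1342. Without this mouse, the log2 fold change of Cdkn3 at 48 h was 0.38 (edgeR, adjusted p = 0.0001042) and that of Cdkn1a 0.75 (adjusted p = 0.2287). In all, 42 groups were examined this way, of which chance alone marks about 1 in 20.

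The effect of treatment differed between 48 h and 72 h for Cdkn1b, by 0.5046 on the log2 scale, and for Cdkn2a, by 0.9029, as tested by the interaction given above.

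In the first experiment, which was outside the comparisons, Cdkn1a had 0 UMIs in all 3 untreated 72 h mice and at least 0.7143 CPM in each of 3 treated 72 h mice, on 3–7 UMIs per mouse. The untreated libraries were shallower, and 3 UMIs there would correspond to 1.312–8.577 CPM, above the lowest treated value, so that the difference was not detectable at this depth. The treated cells there were also sorted for low mCherry, so that treatment and sort gate cannot be told apart.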

How the results depend on the processing

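The number of members called, over the alternatives, was 0–6 at 48 h and 0–1 at 72 h. It moved from 4 at 48 h to 2 with the B1-8hi pairing only, without the term for the experiment and in the larger experiment alone, to 1 in the smaller alone and in S cells and to 0 in G2/M cells. At 72 h it moved from 1 to 0 without that term, in the smaller experiment and when scaled by cells. Between treated groups it moved from 4 to 2 with the pairing only and in the larger experiment and to 1 with cells thinned, where Cdkn2a had too few counts to be tested. The difference of effects went from 2 to 0 with the pairing only and in the larger experiment, to 1 without the term and in the smaller experiment and to 5 when scaled by cells. In G1 cells at 48 h the count went from 1 to 0 with the pairing only and in the smaller experiment and to 3 when scaled by cells. Calls over all genes moved with these settings. At 48 h they went from 4855 of 10270 to 3389 of 9893 with the pairing only and 2680 of 10220 without the term. They were 3838 of 10133 in the larger and 2149 of 10334 in the smaller experiment. At 72 h they were 217 of 10220 without the term, 22 of 10334 in the smaller experiment and 619 of 10270 by cells. Between treated groups they were 3987 of 9893 (pairing only), 4147 of 10133 (larger experiment) and 2741 of 9104 (cells thinned). For the difference of effects they went from 3223 of 10270 to 8648 of 10270 when scaled by cells and 768 of 10334 in the smaller experiment, and in G1 cells from 833 of 8940 to 6223 of 8940 by cells, 216 of 8072 with the pairing only and 6 of 8729 in the smaller experiment. In CDK2hi cells it was 2 of 5 tested within G1 cells, 4–5 with each mouse left out, and 4 with no replicate block, where the log2 values were -0.0039 for Cdkn1b, 1.51 for Cdkn2a, 1.53 for Cdkn2c, 1.38 for Cdkn2d and 2.31 for Cdkn3. Cdkn1a was not tested without the block, and the block changed no other call of a member.

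Signs turned mostly near 0. Cdkn1b at 48 h gave -0.062 with the pairing only, -0.0013 with only the groups compared, -0.21 in the larger experiment, -0.040 by total UMIs and -0.0073 in G2/M cells, where Cdkn2c gave -0.069 and Cdkn3 -0.10. At 72 h, Cdkn1a gave -0.27 in the larger experiment, Cdkn2d -0.051 in G1 cells and Cdkn2c 0.021 with the pairing only, 0.056 in the larger experiment and 0.067 by cells. Between treated groups, Cdkn1a gave 0.24 in the larger experiment and 0.62 by cells. From 0 h to untreated 48 h, Cdkn2a gave -0.0052 (quantile 0.95), -0.0117 (larger experiment), -0.0101 (cells) and -0.0100 (1 mouse at 0 h left out), and Cdkn3 0.0112 (DESeq2), 0.0036 (no filter on low counts), 0.058 (pairing only), 0.0097 (quantile 0.95), 0.0092 (no term) and 0.050 (larger experiment). From 0 h to untreated 72 h, Cdkn1a gave 0.025 and Cdkn2c -0.0231 without that mouse, Cdkn2c -0.0215 (quantile 0.95), -0.00069 (larger experiment) and -0.0195 (cells), and Cdkn2d 0.0012 (thinned). In G1 cells at 48 h, Cdkn1b gave -0.15 (pairing only) and -0.29 (larger experiment), Cdkn2c 0.17 (cells) and Cdkn2d 0.11 (smaller experiment) and 0.34 (cells). In CDK2hi cells, Cdkn1b gave 0.11 with the pairing only and in G1 cells and -0.079 to 0.019 with each mouse left out, and Cdkn2c gave -0.34 in G1 cells. For single members, 488 values kept direction and side of the threshold, 41 lost and 13 gained the call with the same sign, and 41 turned sign, as given above. Of those that turned, Cdkn2c and Cdkn3 in G2/M cells and Cdkn2c in CDK2hi G1 cells lost a call, and Cdkn2d in G1 cells scaled by cells gained one (adjusted p = 0.01782). Some of these settings held fewer mice or cells, others the same, and the cause of the turns was not tested. Cdkn1a and Cdkn2a are limited by depth.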

Other observations

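The first experiment, with 3 mice each at 0 h and at 72 h with and without anti-DEC-OVA and 1887–2317 UMIs per cell on average, was outside the comparisons, and its values are given without a test. By the study's description, its treated cells were gated on DEC-205 and on low mCherry, the label that each division dilutes, and the other groups were not gated on low mCherry, so that treatment and sort gate cannot be told apart in the values that follow. Cdkn3 was at 113, 125.6 and 135.3 CPM at 0 h, at 120.8, 121.1 and 128.7 CPM in untreated and at 122.8, 127.5 and 146.7 CPM in treated 72 h mice. Cdkn2d was at 83.26–107.5, 81.47–105.4 and 89.76–101.1 CPM in the same order, so that its ranges overlapped. Cdkn2c was at 33.78–46.54 CPM at 0 h, 39.3–40.66 CPM in untreated and 29.28–33.2 CPM in treated 72 h mice, where the treated mice lay below the other groups. Cdkn1b was at 9.992–18.65, 6.709–10.06 and 9.305–10.78 CPM and Cdkn2a at 1.173–4.263, 0–5.751 and 4.018–4.762 CPM, on 3–44 and 0–19 UMIs per mouse. The mean of Cdkn1b was 10.03 CPM in treated and 8.449 CPM in untreated 72 h mice, with overlapping ranges, a direction opposite to its fall at 72 h in the time course.

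In this experiment too, Cdkn3 was highest in G2/M cells of 9 of 9 mice, with 34.64, 58.54 and 294.4 CPM in G1, S and G2/M cells pooled over mice, and Cdkn2d had 59.85, 63.75 and 169.4 CPM.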
